A study of Macaca mulatta with 39 samples.

Results

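Fibroblasts grown out of teratomas of the female rhesus macaque embryonic stem cell (ESC) line 3806 were compared with fibroblasts grown from the skin of animals whose gametes gave the study's lines. A teratoma is the tumour of mixed tissues that pluripotent cells form in a host, and here ESCs were injected into mice with a deficient immune system. The members are the arrays of 3 teratoma cultures (TA38, TB38 and TC38) and of 3 skin cultures (M032, M088 and M106p1), 17 of the 39 arrays in the series. Each culture had 3 arrays, and 1 array of M106p1 was left out. The remaining arrays come from both ESC lines and from 5 fibroblast cultures of teratomas of the male line 3106, which are used below for the spread among cultures and to ask whether a difference is particular to line 3806.

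The design text of the series calls the teratoma cultures of line 3806 genetically identical to their ESC line, so the 3 cultures stand for 1 genome and for 3 tumours, while each skin culture carries its own animal's number. No treatment is named for any group. The labels do not state the sex or age of the skin donors, the passage of the cultures or which donor belongs to which line's pedigree, so genome, sex and cell origin cannot be told apart in this comparison. The mouse host tissue of the teratomas is a further difference from skin whose part in the results was not tested. The arrays of a culture are described as biological triplicates, and what was repeated to make them is not given. They were averaged, so that n counts cultures.

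Fibroblasts are the matrix-producing cells of connective tissue. Those of adult skin keep a record of their place in the body in their HOX genes, which encode transcription factors that set position along the body axis in the embryo. Fibroblasts that arise in a teratoma differentiate from pluripotent cells outside any body plan and have an embryonic rather than an adult history. MEST is an imprinted gene, read from the paternal copy and active in embryonic mesoderm. SOX11 and SOX2 are transcription factors of embryonic progenitor cells, and SOX2 also maintains pluripotency.

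All levels below are log2 signals of 1 probe set per gene (the one with the highest mean over all arrays), so that a difference of 1 is a doubling of the signal, and levels are not set against each other between genes. Array medians lay between 6.29 and 6.42 in line 3806 and between 6.26 and 6.33 in skin, and the 3′ to 5′ gap of the actin control probe sets, a sign of RNA quality, lay between 0.05 and 0.55 and between 0.05 and 0.59. The array labelled M106p1f had a correlation of 0.94 with an array of the line 3106 teratoma culture TD31 and of at most -0.48 with the other arrays of M106p1 (deviations from the gene means over all fibroblast arrays). The array labelled TB31c had a correlation of 0.97 with an array of M106p1. Both were set aside. Fibroblast markers were high in both kinds of culture: all 8 measured markers of 9 were above the 95th percentile of the array's viral probe sets (6.73, taken as background) in every culture. Their summed level was 93.25 to 95.64 in line 3806 and 93.17 to 94.94 in skin. None of the 4 pluripotency markers POU5F1, DPPA4, SALL4 and EPCAM was above that level in every culture of either kind, and their summed level was 19.90 to 20.17 against 19.75 to 20.23.

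A total of 61 of 14132 genes (0.432%) were called higher in line 3806 teratoma fibroblasts than in skin and 63 (0.446%) lower. A gene was called in limma at a Benjamini-Hochberg adjusted p under 0.05 over all genes and a log2 difference of at least 1. The genes called higher were led by MEST, SOX11 and FBN2, the fibrillin of fetal tissues. Those called lower were led by FAM180A, a gene of little-known function, MOXD1, a relative of dopamine beta-hydroxylase, and C1QTNF5, a secreted relative of complement C1q. The differences of the genes called higher ran from 1.01 to 6.32 with a median of 1.74, and those of the genes called lower from 1.01 to 4.98 in size with a median of 1.39. A further 592 genes differed by at least 1 without being called. The 3 culture means of line 3806 all lay above the 3 of skin for 1921 genes (13.6%) and below them for 1316 genes (9.31%), and for all 124 called genes. An exact permutation test of 3 cultures against 3 cannot go below p = 0.10. The count rested on single cultures: 22 genes were called higher and 23 lower without TC38, 25 and 25 without TB38, 33 and 46 without M032, 39 and 46 without M106p1, 59 and 81 without TA38, and 88 and 64 without M088. With arrays M106p1f and TB31c kept under their labels, 44 were called higher and 33 lower. In a fit of the 6 compared cultures alone, 68 were called higher and 41 lower, of which 36 and 31 are among the 61 and 63.

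**Figure D1:**
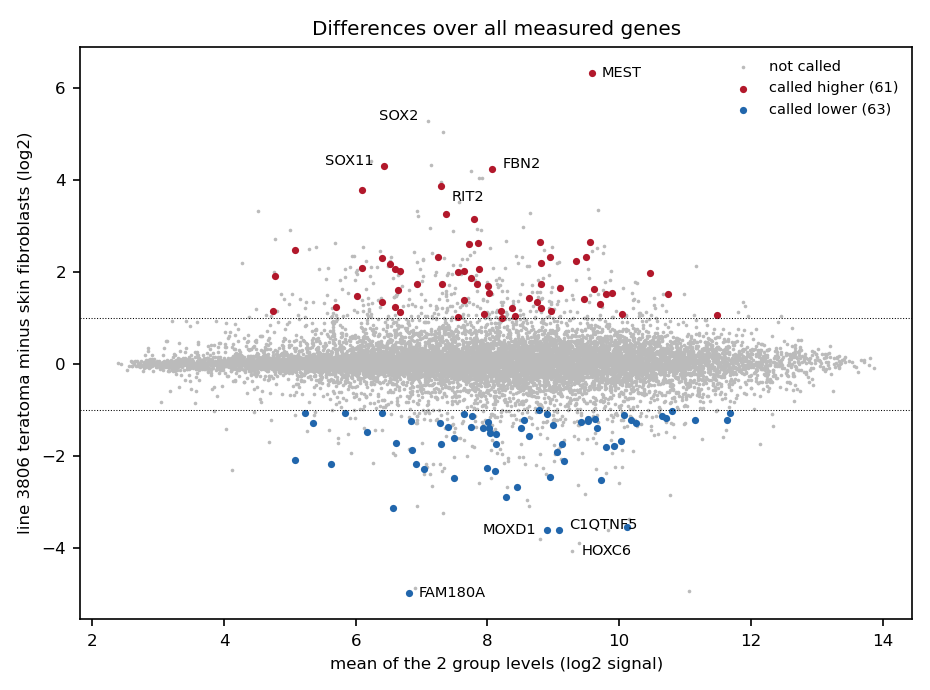
Each point is 1 of 14132 genes, with the mean of the line 3806 and skin levels (log2 signal) on the x axis and the difference of the 3 teratoma culture means from the 3 skin culture means (log2) on the y axis; dotted lines mark a difference of 1 in size. The 61 genes called higher are red and the 63 called lower are blue, and SOX2 and HOXC6 lie far out without being called.

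MEST had the largest difference of all genes called higher. Its signal on the 9 line 3806 arrays ran from 12.46 through a median of 12.85 to 12.99, and on the 8 skin arrays from 5.22 through 6.14 to 7.90. No array of one kind came near the other kind, and M088 was the highest of the skin cultures at 7.78, against 5.38 in M032 and 6.14 in M106p1. The difference was 6.32 ± 0.62 (SE, limma adjusted p = 0.00254), with culture levels of 12.75 ± 0.20 (SD, n = 3) against 6.43 ± 1.23 (SD, n = 3). MEST has 1 probe set. In the 5 line 3106 teratoma cultures it ranged from 10.45 to 12.38.

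SOX11 was similarly split. Its line 3806 arrays ran from 8.21 through 8.62 to 8.80 and its skin arrays from 4.02 through 4.15 to 4.72, which is below the viral background level. The difference was 4.30 ± 0.46 (SE, adjusted p = 0.00277), and the brightest other probe set of the gene gave 2.99 (adjusted p = 0.0184).

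SOX2 was not called. Its line 3806 arrays ran from 8.49 through 9.26 to 11.09, and its skin arrays, all below the viral background level, from 4.20 through 4.46 to 4.62. The line 3806 cultures were far above skin and unequal among themselves, at 9.37 in TA38, 10.90 in TB38 and 8.94 in TC38. The difference was 5.28 ± 1.34 (SE, limma adjusted p = 0.0706). The test uses the spread within all 3 kinds of fibroblast culture, and the line 3106 cultures ran from 4.78 to 10.33. In a fit of the 6 compared cultures alone the adjusted p was 0.0192. Of the 119 named genes, 18 lost their call in that fit and 7 gained one. The brightest other SOX2 probe set differed by 0.86 (adjusted p = 0.104), with both means, 6.50 and 5.64, below the viral background level.

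FAM180A was the marker of the skin side. Its signal on the skin arrays ran from 8.05 through 8.75 to 10.98, with M032 highest at 10.91, and on the line 3806 arrays from 4.06 through 4.31 to 4.51. The skin arrays were thus all well above the line 3806 arrays, which lay below the viral background level. The difference was -4.98 ± 0.59 (SE, adjusted p = 0.00464), with culture levels of 4.31 ± 0.08 (SD, n = 3) and 9.29 ± 1.42 (SD, n = 3). The calls of MEST, SOX11 and FAM180A held when any 1 of the 6 cultures was left out, with differences of 5.79 to 6.99, 4.22 to 4.41 and -5.51 to -4.17.

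**Figure D2:**
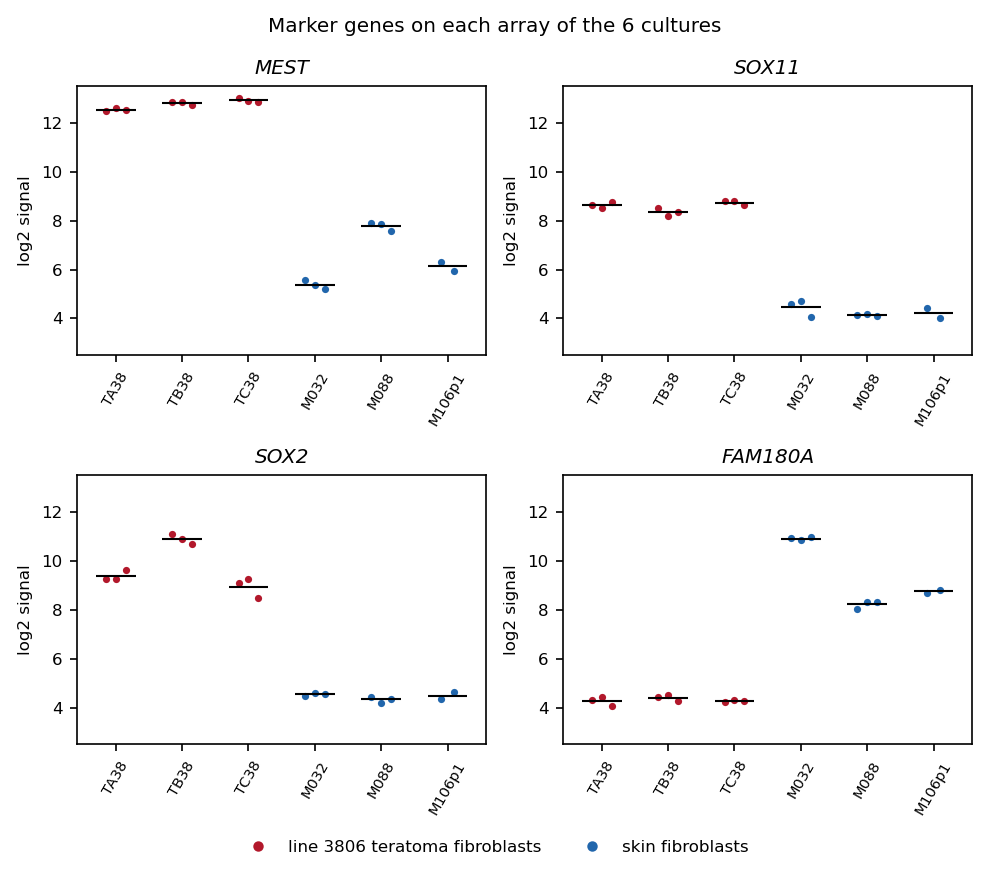
Each panel shows 1 gene, with the log2 signal of every array (points) and the culture mean (line) for the 3 line 3806 teratoma cultures and the 3 skin cultures. MEST, SOX11 and SOX2 are higher on every teratoma array than on any skin array, and FAM180A is lower on every teratoma array.

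Of the other genes with the largest rises, FBN2 and COL4A5 encode matrix proteins. FBN2 encodes fibrillin 2, a building block of microfibrils that is made mostly before birth. Its culture means were 9.95, 10.15 and 10.48 in TA38, TB38 and TC38, and 5.54, 6.37 and 5.97 in M032, M088 and M106p1, a difference of 4.23 ± 0.45 (SE, adjusted p = 0.00277). Its brightest other probe set differed by 0.15 (adjusted p = 0.563) and showed no such rise, with both means, 6.82 and 6.67, near the viral background level. COL4A5, a chain of the collagen IV of basement membranes, was at 8.88, 9.35 and 9.30 against 5.68, 6.65 and 7.33, a difference of 2.62 ± 0.54 (SE, adjusted p = 0.0451). Its call was lost without any 1 of the cultures (adjusted p of 0.0502 to 0.133). Its brightest other probe set differed by 0.22, with both means, 5.91 and 5.70, below the viral background level.

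GPM6A, ZNF711 and PCDHB11 were also among the largest rises. GPM6A, a membrane glycoprotein of neurons, was at 8.69, 10.07 and 8.23 in the line 3806 cultures and at 5.02, 5.67 and 6.55 in skin, a difference of 3.25 ± 0.60 (SE, adjusted p = 0.0302). The groups did not overlap, TB38 was highest, and the call was lost without TB38, TC38, M032 or M088 (adjusted p of 0.0539 to 0.0999). The brightest other GPM6A probe set gave 4.52 (adjusted p = 0.0258). ZNF711, an X-linked zinc finger transcription factor, was at 8.01, 8.29 and 7.62 against 4.04, 4.42 and 4.14, a difference of 3.77 ± 0.49 (SE, adjusted p = 0.00740). Its brightest other probe set differed by 0.85 (adjusted p = 0.108), with both means, 4.38 and 3.52, below the viral background level. PCDHB11, a clustered protocadherin that gives cells a surface identity, was at 9.78, 10.33 and 10.24 against 8.17, 7.41 and 7.76, a difference of 2.33 ± 0.25 (SE, adjusted p = 0.00277).

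Of the actin-binding proteins, TMSB15A, a thymosin that binds actin monomers, rose by 2.64 (adjusted p = 0.0243) and AIF1L by 2.61 (adjusted p = 0.0191). The skin means of TMSB15A were 8.03, 8.11 and 6.31, with M106p1 lowest, and its line 3806 means were 10.19, 9.65 and 10.53. AIF1L was at 9.12, 9.50 and 8.44 against 5.84, 6.67 and 6.71. Its brightest other probe set differed by 0.14, with both means, 7.05 and 6.91, near the viral background level. The TMSB15A call was lost without any 1 of the teratoma cultures (adjusted p of 0.0504 to 0.0938) and the AIF1L call without M032 or TB38 (0.0551 to 0.0780). SH3YL1, an SH3-domain protein that binds membrane phosphoinositides, was at 5.88, 6.83 and 6.23 against 4.07, 4.13 and 3.33 (adjusted p = 0.0162, lost without TB38 or TC38 at 0.0637 to 0.0655). Both SH3YL1 group means, 6.31 and 3.84, lay below the viral background level. GOLM1, a Golgi membrane protein, had cultures that lay close together at 10.53, 10.66 and 10.82 against 8.64, 8.32 and 8.06, and a difference of 2.33 ± 0.22 (SE, adjusted p = 0.00201). ST6GALNAC3, a Golgi sialyltransferase, was at 9.06, 7.89 and 8.27 against 6.40, 5.56 and 6.32 (adjusted p = 0.0162, lost without TC38 at 0.0604).

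The largest falls after FAM180A held secreted proteins, enzymes and a channel. MOXD1, a monooxygenase, was at 7.17, 7.50 and 6.62 in the line 3806 cultures and at 10.40, 10.59 and 11.10 in skin, and fell by 3.60 (adjusted p = 0.00955). Its brightest other probe set gave -2.49 (adjusted p = 0.00239). C1QTNF5 was at 7.50, 7.03 and 7.32 against 11.24, 10.48 and 10.93, and fell by 3.60 (adjusted p = 0.00441). ISM1, a secreted isthmin, was at 4.87, 4.74 and 5.40 against 8.77, 7.62 and 7.99 (adjusted p = 0.00748). Its brightest other probe set differed by -0.28, with both means, 5.74 and 6.01, below the viral background level. The culture means of both kinds were more than 2 apart for each of these 3 genes.

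ADIRF, named for its part in fat cell differentiation, had an uneven fall. Its line 3806 means were 9.35, 8.28 and 7.39 and its skin means 11.13, 12.56 and 11.98, a difference of -3.55 ± 0.73 (SE, adjusted p = 0.0442). TA38 was nearest to skin, and the call was lost without TB38, TC38, M032, M088 or M106p1 (adjusted p of 0.0604 to 0.137). KCNJ8, the pore-forming subunit of an ATP-sensitive potassium channel, was at 7.58, 6.51 and 6.42 against 8.97, 10.10 and 10.13, a difference of -2.89 ± 0.40 (SE, adjusted p = 0.00955). The KCNJ8 call was lost in the fit of the 6 compared cultures alone. CTBS, a lysosomal chitobiase that breaks down glycoprotein sugars, was at 7.41, 7.59 and 6.34 against 9.69, 9.78 and 9.91 (difference -2.68 ± 0.31 SE, adjusted p = 0.00441).

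HTATIP2, an oxidoreductase, was even within each kind, with 8.39, 8.57 and 8.44 against a range of 10.89 to 11.08 in skin, a difference of -2.52 ± 0.26 (SE, adjusted p = 0.00277). The brightest other HTATIP2 probe set gave -3.08. CAB39L, a scaffold of the kinase LKB1, was at 8.11, 7.46 and 7.60 against 9.75, 10.25 and 10.56 (adjusted p = 0.0229, lost without M106p1, TB38 or TC38 at 0.0709 to 0.0913). PRELID2 was at 5.38, 6.42 and 5.89 against 7.41, 8.95 and 8.16 (adjusted p = 0.0417). ACSL5, which activates long-chain fatty acids, was at 5.90, 5.67 and 5.90 against 8.74, 7.25 and 8.01 (adjusted p = 0.0499). Its brightest other probe set differed by -0.18, with both means, 6.16 and 6.33, below the viral background level. The calls of PRELID2 and ACSL5 were each lost without 5 of the 6 cultures, at adjusted p of 0.0680 to 0.119 and of 0.0740 to 0.147; M032 was the exception for PRELID2 and M088 for ACSL5. Over the 15 largest rises and 15 largest falls, 18 of the 30 calls held whichever of the 6 cultures was left out.

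**Figure D3:**
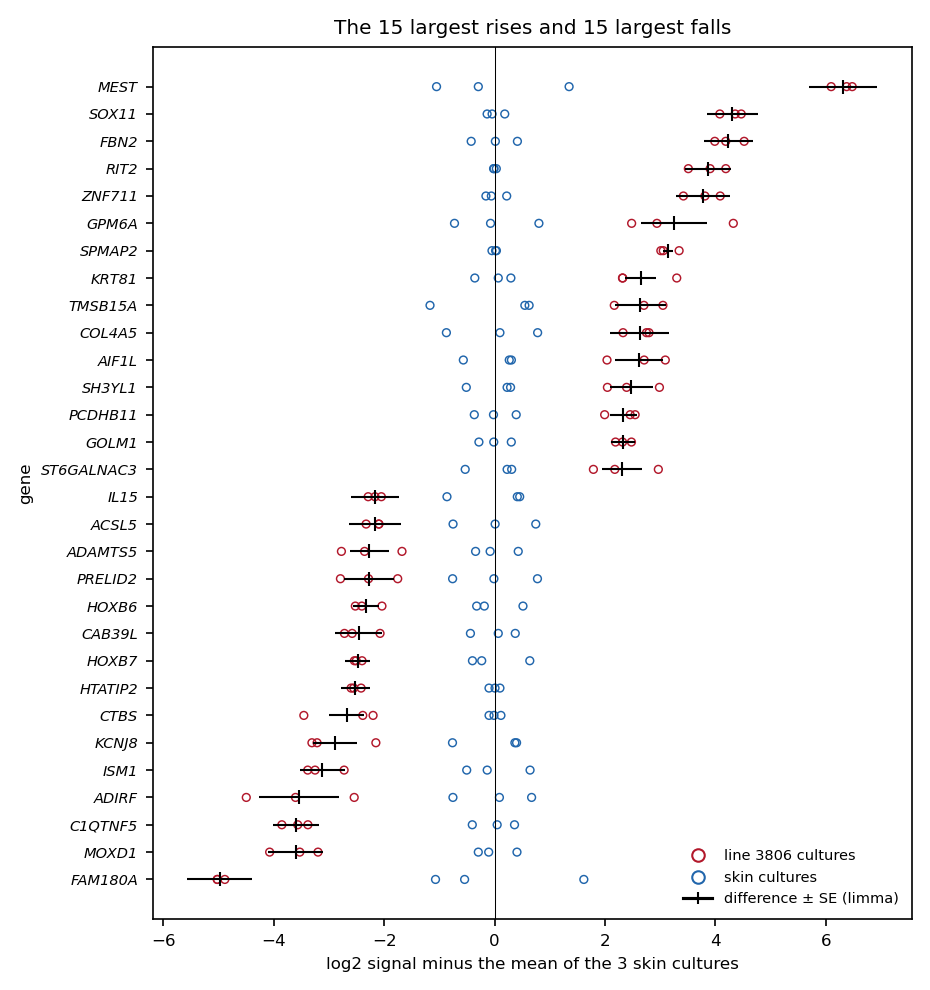
For the 15 largest rises and 15 largest falls among called genes, open circles give each culture mean relative to the mean of the 3 skin cultures (log2), red for line 3806 and blue for skin, and the bar gives the difference with its SE from limma. Only genes with non-overlapping culture means could be picked, so no red circle overlaps the blue circles of its gene. MEST lies furthest to the right at 6.32 and FAM180A furthest to the left at -4.98.

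Among the HOX genes, 3 of 26 measured members fell and none rose. The 3 are neighbours in the HOXB cluster: HOXB5, HOXB6 and HOXB7. Over all genes 0.446% were called lower and 0.432% higher, the background for each count of called list members below. At an unadjusted limma p under 0.05, 1653 of the 14132 genes (11.7%) were higher and 1149 (8.13%) lower, the background for each unadjusted count below. Of the 26 HOX genes 9 were lower and 0 higher at that p. The 3 culture means were apart downward for 10 and upward for 1, against 9.31% and 13.6% of all genes. The median difference of the list was -0.09 against 0.02 over all genes. HOXB7 was at 6.19, 6.22 and 6.33 in the line 3806 cultures and at 9.37, 8.49 and 8.33 in skin. The line 3806 values lay below the viral background level, M032 was the highest skin culture, and the difference was -2.48 ± 0.22 (SE, adjusted p = 0.00182). HOXB6 was at 6.75, 6.87 and 7.23 against 9.79, 8.95 and 9.09 (difference -2.32 ± 0.23 SE, adjusted p = 0.00254). Its other probe set was below the viral background level in the mean of both kinds, at 5.83 against 5.73 (difference 0.10, adjusted p = 0.678). HOXB5 was at 6.19, 6.47 and 6.61 against 9.27, 7.73 and 7.47, with M032 far above the other skin cultures. Its difference was -1.73 ± 0.37 (SE, adjusted p = 0.0496), its other probe set gave -1.63 (adjusted p = 0.0322), and its call was lost without any 1 of the teratoma cultures (adjusted p of 0.0858 to 0.133).

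The largest HOX difference was not called. HOXC6 was at 7.32, 6.90 and 7.54 in line 3806 and at 11.50, 11.07 and 11.37 in skin, a difference of -4.06 ± 0.95 (SE, adjusted p = 0.0602). Its groups were far apart, but the line 3106 cultures ran from 6.52 to 10.44; in the fit of the 6 compared cultures alone the adjusted p for HOXC6 was 0.00167. Its brightest other probe set differed by 0.03, with both means, 6.37 and 6.33, below the viral background level. HOXA5 was at 7.41, 6.54 and 6.73 against 8.63, 9.17 and 8.29 (difference -1.81, adjusted p = 0.154). At the posterior end of the clusters 1 teratoma culture stood apart: HOXD13, a gene of the distal limb and tail end, was at 10.04 in TA38, 6.44 in TB38 and 6.34 in TC38, with skin between 5.87 and 6.14. HOXA13 was at 6.50 in TA38 against 3.56 and 3.73 in TB38 and TC38, all below the viral background level. These posterior genes were picked after their values were seen, and neither was called.

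**Figure D4:**
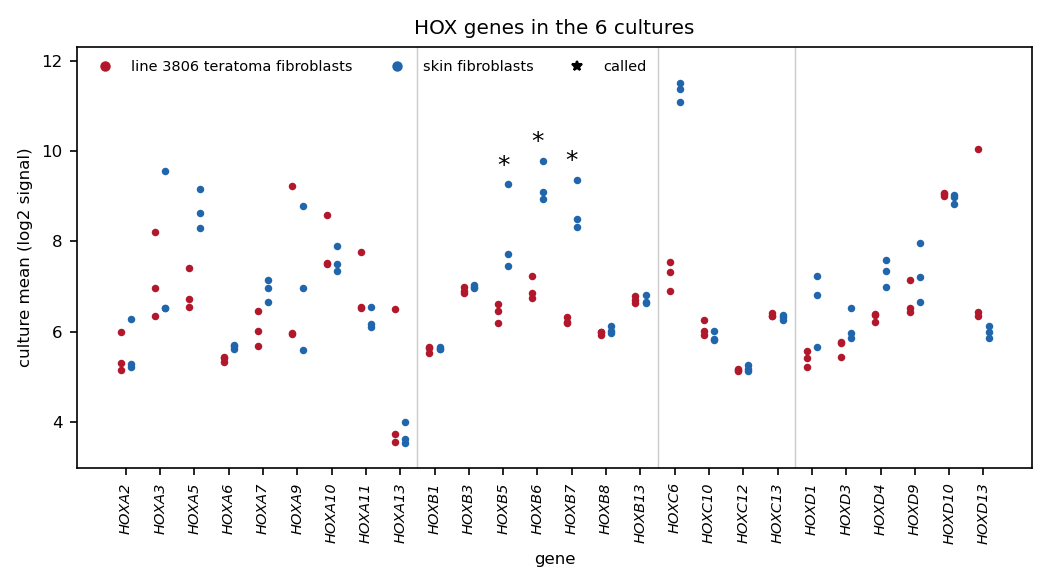
Culture means (log2 signal, y axis) of the 26 measured HOX genes (x axis, by cluster and number) in the 3 line 3806 teratoma cultures (red) and the 3 skin cultures (blue), with an asterisk over called genes. HOXB5, HOXB6, HOXB7 and HOXC6 show the blue points well above the red, and TA38 alone is high for HOXD13, at 10.04.

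Of the 39 proteoglycan and elastic fibre genes measured, 2 rose (FBN2 and MFAP2) and 2 fell (LOXL3 and LTBP2). Over all genes 0.432% rose and 0.446% fell. The list's median difference was 0.16. MFAP2, a glycoprotein bound to fibrillin microfibrils, was at 9.77, 10.35 and 10.95 against 9.24, 8.93 and 8.99 (difference 1.30 ± 0.25 SE, adjusted p = 0.0374). LOXL3, a lysyl oxidase that cross-links collagen and elastin, was at 8.70, 7.68 and 7.88 against 10.09, 9.74 and 10.21 (difference -1.92 ± 0.31 SE, adjusted p = 0.0165). LTBP2, a fibrillin-binding protein, was at 10.50, 10.58 and 9.79 against 11.46, 11.10 and 11.36 (difference -1.02 ± 0.22 SE, adjusted p = 0.0472). All of these groups were apart. The call of MFAP2 was lost without any 1 culture but TA38 (adjusted p of 0.0638 to 0.111), that of LOXL3 without M032, M106p1, TB38 or TC38 (0.0507 to 0.0784), and that of LTBP2 without any 1 culture (0.0513 to 0.117).

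Of 32 collagen chains, only COL4A5 was called, with a median difference of 0.28 for the list; 10 chains were higher and 1 lower at an unadjusted p under 0.05, against 11.7% and 8.13% of all genes. COL7A1, the anchoring fibril collagen of skin, was at 9.58, 11.20 and 10.89 in line 3806 and at 8.40, 7.12 and 10.00 in skin (difference 2.05, adjusted p = 0.142), with overlapping groups. Of 32 metalloproteinase and inhibitor genes, 1 fell: ADAMTS5, an aggrecan-cleaving protease, at 7.45, 6.36 and 6.78 against 9.05, 9.56 and 8.79 (difference -2.27 ± 0.36 SE, adjusted p = 0.0162). Its brightest other probe set gave -1.05 (adjusted p = 0.0442), and the call was lost without TB38 or TC38 (adjusted p of 0.0644 to 0.0745). The collagenase MMP1 was at 11.30, 11.24 and 10.24 against 9.41, 7.41 and 8.40 (difference 2.52, adjusted p = 0.177). None of 32 matrix glycoproteins was called in limma, with 1 higher and 4 lower at an unadjusted p under 0.05. ABI3BP, one of them, was at 6.30, 5.22 and 5.60 against 7.85, 9.43 and 9.59 (difference -3.25, adjusted p = 0.101).

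Of 22 fibroblast surface and identity genes, 2 fell and none rose, against 0.446% and 0.432% of all genes. The 2 are FAM180A, placed on this list with its values known, and PROCR, the receptor of protein C. PROCR was at 9.40, 8.52 and 8.78 against 10.84, 10.49 and 10.80 (difference -1.81 ± 0.38 SE, adjusted p = 0.0472), a call lost without any 1 culture but TA38 (0.0616 to 0.147). At an unadjusted limma p under 0.05, 1 gene of this list was higher and 6 lower, against 11.7% and 8.13% of all genes. NT5E, the surface enzyme CD73, was at 8.97, 8.92 and 7.95 against 11.04, 11.23 and 10.66 (difference -2.37, adjusted p = 0.0808; 0.0389 in the fit of the 6 compared cultures). None of 16 smooth muscle and contractile genes was called in limma (1 higher and 3 lower at an unadjusted p under 0.05).

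Among the 19 imprinted genes, MEST was the single call, and the list's median difference was 0.30. H19, a non-coding RNA read from the maternal copy, was at 12.78, 11.32 and 12.58 in line 3806 and at 7.50, 10.92 and 11.91 in skin, so its groups overlapped (difference 2.12, adjusted p = 0.391). DLK1, a paternally read regulator of fat cell formation, was at 6.95, 7.28 and 8.32 against 6.25, 5.97 and 6.08 (difference 1.42, adjusted p = 0.469). Of 16 SOX and ZIC genes, SOX11 alone was called. ZIC2, a zinc finger factor of neural progenitors, was at 8.44, 10.32 and 10.92 in line 3806 and at 8.52, 5.44 and 3.57 in M032, M088 and M106p1, so its groups overlapped. Among the RNA-binding and growth regulators of the fetus none of 14 was called in limma, with 3 higher and 0 lower at an unadjusted p under 0.05. IGF2BP3, a fetal mRNA-binding protein, was at 11.15, 11.27 and 11.63 against 9.34, 5.43 and 9.23 (difference 3.35, adjusted p = 0.0695).

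DNMT3A, a de novo DNA methyltransferase, was the single call among 11 DNA methylation and TET genes, whose median difference was 0.34. Its culture means were 8.36, 8.07 and 8.57 against 6.97, 7.16 and 6.69, with no overlap (difference 1.39 ± 0.24 SE, adjusted p = 0.0224). The next brightest DNMT3A probe set gave 0.57 (adjusted p = 0.274), and the call was lost without M032, M106p1 or TC38 (0.0562 to 0.0905). TET3, which oxidises methylated cytosine, was at 8.78, 8.95 and 9.33 against 6.65, 7.90 and 7.75 (difference 1.59, adjusted p = 0.0732). Of 15 pluripotency genes none was called in limma; 3 were higher and 0 lower at an unadjusted p under 0.05, SOX2 among the 3.

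Of 47 WNT pathway genes, 2 fell and none rose, against 0.446% and 0.432% of all genes. At an unadjusted limma p under 0.05, 5 were higher and 5 lower, against 11.7% and 8.13% of all genes. The list's median difference was 0.01. Its largest differences were rises that were not called, those of WNT2 (2.00, adjusted p = 0.258) and DKK2 (1.95, adjusted p = 0.204). For both genes every line 3806 array lay above every skin array. LGR5, the R-spondin receptor known from stem cells, was at 10.73, 10.72 and 10.18 against 11.81, 11.90 and 11.59 (difference -1.22 ± 0.24 SE, adjusted p = 0.0383), a call lost without any 1 culture (0.0504 to 0.122). FZD1, a WNT receptor, was at 9.90, 10.15 and 10.22 against 11.10, 11.19 and 11.34 (difference -1.12 ± 0.14 SE, adjusted p = 0.00599), while its brightest other probe set differed by -0.08. Of 31 FGF, PDGF, VEGF and related genes, NRG1, a ligand of ERBB receptors, rose by 1.08 (adjusted p = 0.0451), with 8.83, 8.24 and 8.41 against 6.94, 7.81 and 7.48. That call was lost without 5 of the 6 cultures (0.0766 to 0.119), M088 being the exception. The brightest other NRG1 probe set differed by 0.13, with both means, 7.0 and 6.9, near the viral background level. None of 44 TGF-beta and BMP genes was called in limma (6 higher and 6 lower at an unadjusted p under 0.05); BMP4 was very even in line 3806 at 8.79, 8.79 and 8.82 against 6.83, 7.29 and 6.47 (difference 1.94, adjusted p = 0.083).

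Of 50 axon guidance genes, 1 rose: ROBO1, a SLIT receptor, at 10.71, 10.14 and 10.46 against 9.21, 8.23 and 8.97 (difference 1.63 ± 0.24 SE, adjusted p = 0.0119, lost without TC38 at 0.0542). In this list 11 genes were higher and 5 lower at an unadjusted p under 0.05, against 11.7% and 8.13% of all genes. Among the immune genes, 2 of 42 cytokines and chemokines fell and none rose, against 0.446% and 0.432% of all genes. At an unadjusted limma p under 0.05, 6 were higher and 6 lower, and the list's median difference was -0.01. Its largest differences were rises that were not called. TNFRSF21 was at 7.95, 9.63 and 9.20 against 5.21 to 6.51 in skin (difference 2.89, adjusted p = 0.0732). CCL2 differed by 2.44 (adjusted p = 0.155), with overlapping groups. IL15, a growth factor of natural killer and T cells, was at 4.66, 4.55 and 4.42 in line 3806 and at 7.12, 5.85 and 7.17 in skin, a difference of -2.17 ± 0.43 (SE, adjusted p = 0.0393). Both IL15 group means, 4.54 and 6.71, lay below the viral background level. The brightest other IL15 probe set gave -2.25 (adjusted p = 0.0649), also with both means below the viral background level. The IL15 call was lost without any 1 culture but M088 (0.0592 to 0.122). CXCL6, a neutrophil-attracting chemokine, was at 7.30, 7.48 and 6.92 against 8.46, 8.87 and 8.55 (difference -1.39 ± 0.23 SE, adjusted p = 0.0186, lost without TC38 at 0.0794). Single CXCL6 arrays overlapped, at up to 7.96 in line 3806 and down to 7.63 in skin. ERAP1, which trims peptides for MHC class I, was the 1 call among 16 MHC class I genes, at 9.35, 9.42 and 9.51 against 8.15, 7.82 and 8.65 (difference 1.22 ± 0.19 SE, adjusted p = 0.0163). The next brightest ERAP1 probe set gave 1.13 (adjusted p = 0.0466), and the call was lost without M032, TB38 or TC38 (0.0501 to 0.0771). None of 26 interferon-induced genes was called in limma, with 1 higher and 1 lower at an unadjusted p under 0.05.

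The cell cycle list had the largest median difference of the 39 lists, 0.70, and 1 called member of 37, which fell. CCND3, cyclin D3, was at 9.48, 8.53 and 9.09 against 11.55, 10.36 and 10.51 (difference -1.77 ± 0.38 SE, adjusted p = 0.0499), a call lost without any 1 culture but M088 (0.0512 to 0.153). At an unadjusted p under 0.05, 16 members were higher and 2 lower, against 11.7% and 8.13% of all genes. The mean level of the list was 9.53, 9.12 and 9.64 in TA38, TB38 and TC38, and 9.15, 9.23 and 8.00 in M032, M088 and M106p1. Skin culture M106p1 was thus the lowest, while M032 and M088 lay within the range of the teratoma cultures. MAD2L1, a spindle checkpoint gene, was at 10.03, 9.78 and 10.21 against 9.37, 9.36 and 7.06 (difference 1.41, adjusted p = 0.185).

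Markers of other cell types moved with some cultures, and fewer cells of a type and less RNA per cell cannot be told apart in bulk cultures. PAX6, a factor of neural and eye progenitors, was at 11.05, 9.58 and 8.87 in line 3806 and at 4.54, 4.90 and 4.97 in skin (difference 5.03, adjusted p = 0.0615; 0.0266 in the fit of the 6 compared cultures). The 4 neural markers PAX6, DCX, TUBB3 and GFAP summed to 32.83 to 37.40 in line 3806 and to 26.93 to 29.34 in skin. Of these, TUBB3 was at 9.88 to 10.25 against 9.94 to 10.14 and GFAP at 7.61 to 8.00 against 7.19 to 7.81, with overlapping groups, and DCX was at 8.86 in TA38 but at 5.62 and 5.93 in TB38 and TC38, against 5.06 to 6.55 in skin. STMN2, a neuronal tubulin-binding protein, was at 6.86, 6.89 and 6.72 against 10.36, 9.22 and 8.32 (difference -2.47, adjusted p = 0.0841). The embryonic myosin MYH3 was at 10.22 and 9.53 in TA38 and TB38 but at 5.59 in TC38, against 4.83, 7.85 and 6.79 in skin, and cardiac actin ACTC1 at 11.17, 10.93 and 8.63 against 7.42, 7.64 and 8.07. The myosin gene MYH2 went the other way, with a line 3806 mean of 8.71 against 11.29 in skin (difference -2.58, limma adjusted p = 0.0683). Every line 3806 array lay below every skin array for MYH2, the largest difference in the skeletal muscle list. Of the 23 genes of that list, 8 were at least 1 higher in line 3806 and 1 was at least 1 lower. Creatine kinase CKM, a gene of mature muscle, was below the viral background level in all 6 cultures, and none of 23 skeletal muscle genes was called in limma (2 higher and 1 lower at an unadjusted p under 0.05). The desmosome gene DSP was at 9.05, 10.00 and 10.45 against 6.14, 5.88 and 4.96 (difference 4.18, adjusted p = 0.234; 0.0266 in the fit of the 6 compared cultures). The measured skeletal muscle markers summed to 20.07 to 27.11 in line 3806 and 17.94 to 21.17 in skin, and the keratinocyte markers DSP and TP63 to 15.84 to 17.24 and 11.90 to 13.07. The keratinocyte sums differed through DSP, since TP63 was at 6.79, 6.83 and 6.79 against 6.93, 6.72 and 6.94. The 4 macrophage and leukocyte markers PTPRC, CD14, CSF1R and AIF1 were below the viral background level in every culture and summed to 24.25 to 24.34 against 24.43 to 24.98. The endothelial sum was 23.52 to 25.73 against 25.10 to 27.70, the melanocyte sum 19.92 to 21.03 against 19.57 to 20.07, and the adipocyte sum (2 of 3 markers measured) 13.82 to 14.55 against 13.18 to 13.66. The endothelial genes CDH5 and KDR and the adipocyte gene FABP4 were below the viral background level in all 6 cultures. PECAM1 was at 6.93 to 7.01 against 7.34 to 9.23. The groups overlapped for TEK (5.81 to 8.38 against 5.43 to 9.91), ADIPOQ (9.54 to 9.85 against 9.07 to 9.58) and the melanocyte gene TYR (6.79 to 7.05 against 6.76 to 7.08). The part of these cell types in the called differences was not tested.

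To ask whether a difference is particular to line 3806, its teratoma fibroblasts were compared with those of line 3106 in the same fit. Only 6 genes (0.0425%) were called in either direction, 5 higher and 1 lower in line 3806, while 635 had an unadjusted p under 0.05. This comparison shares the line 3806 cultures with the comparison against skin. Without TA38, 2 genes were called higher, without TB38 3, and in both cases none lower. The genes called in both comparisons were SPMAP2, RIT2, PTH2R and KRT81, all higher in line 3806. For 51 of the 61 genes called higher than in skin and 54 of the 63 called lower, the line 3106 mean lay nearer to line 3806 than to skin. These genes were picked for a skin level apart from line 3806, in a fit whose spread includes the line 3106 cultures. The share over all genes is not given, so both counts are a description and no test. The line 3106 cultures ran from 7.13 to 9.35 for SOX11 and from 8.08 to 10.10 for FBN2. They ran from 3.97 to 5.34 for FAM180A and from 6.06 to 6.35 for HOXB7.

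SPMAP2, a gene known from sperm, had the smallest adjusted p of all. Its line 3806 arrays ran from 8.98 through 9.36 to 9.89 and its skin arrays from 6.07 through 6.23 to 6.38. The 5 line 3106 cultures lay between 6.13 and 6.33, and both they and the skin arrays were below the viral background level. The difference was 3.14 ± 0.09 from skin (SE, limma adjusted p = 1.69e-07) and 3.13 ± 0.08 from line 3106 (adjusted p = 5.64e-08).

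RIT2, a Ras-like GTPase of neurons, ran from 8.40 through 9.18 to 9.65 on the line 3806 arrays and from 5.14 through 5.36 to 5.58 on the skin arrays. Line 3106 reached 7.01 in TA31 and otherwise lay between 5.18 and 6.15. The difference was 3.87 ± 0.42 from skin (SE, adjusted p = 0.00277) and 3.41 ± 0.37 from line 3106 (adjusted p = 0.0108).

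KRT81, a hair keratin, was highest in TA38 at 11.53, with 10.55 in both TB38 and TC38, against 7.88, 8.30 and 8.53 in skin and 8.37 to 9.09 in line 3106. It differed by 2.64 from skin (adjusted p = 0.00277) and by 2.24 from line 3106 (adjusted p = 0.0108). PTH2R, a receptor of the parathyroid hormone family, was at 7.99, 7.64 and 7.41 in line 3806. Skin had 5.34, 6.50 and 5.16, with M088 highest, and line 3106 had 4.79 to 5.21. The difference was 2.01 from skin (adjusted p = 0.0142, and 0.0501 without TB38) and 2.59 from line 3106 (adjusted p = 0.0108). The PTH2R call against skin was also lost in the fit of the 6 compared cultures alone.

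**Figure D5:**
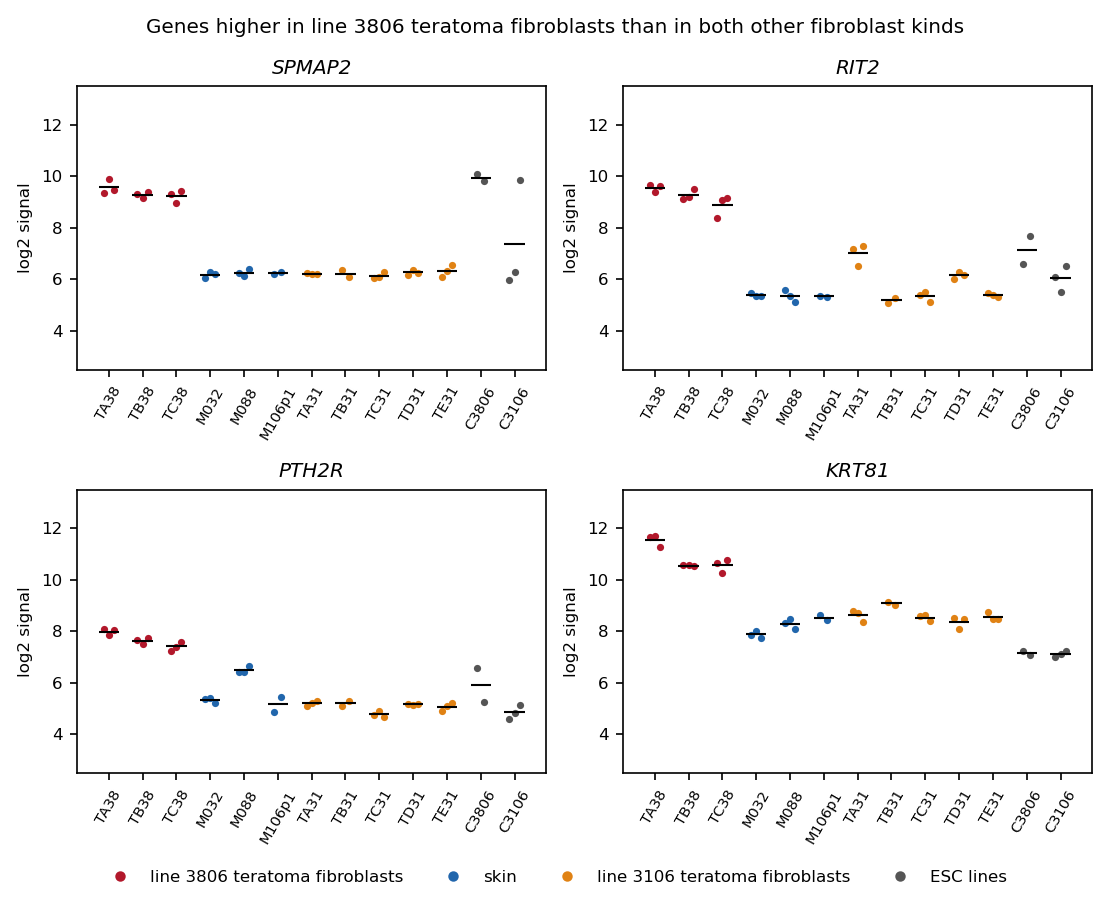
Log2 signal of each array (points) and culture mean (line) for SPMAP2, RIT2, PTH2R and KRT81 in the 3 line 3806 teratoma cultures, 3 skin cultures, 5 line 3106 teratoma cultures and both ESC lines. In every panel the 3 line 3806 cultures lie above the skin and line 3106 cultures. SPMAP2 is also high in the line 3806 ESCs and on the ESC array labelled C3106c.

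The parent ESC line gives the level before differentiation, as a description with no test. Of its 3 arrays the one labelled C3806c was not used, since its POU5F1 signal was 4.84 against 12.67 to 13.17 on the 5 remaining ESC arrays. Of the 61 genes called higher, 48 had an ESC level above the midpoint between the skin and line 3806 fibroblast means. For 12 of the 61 it was at least 1 below the line 3806 fibroblast mean. Of the 63 called lower, 61 had an ESC level below the midpoint. The called genes were picked for their difference from skin, and the shares over all genes are not given beside these counts. The genes that follow are examples. Some genes that rose against skin were also high in line 3806 ESCs: MEST was at 11.66, SOX11 at 9.32, ZNF711 at 9.46, AIF1L at 10.70 and DNMT3A at 11.50. Others were low in ESCs: FBN2 was at 6.11, GPM6A at 6.43, PCDHB11 at 6.10 and KRT81 at 7.17, so these were higher in the teratoma fibroblasts than in both their parent line and skin. Of the genes that fell, FAM180A was at 4.18, HOXB7 at 6.18, ISM1 at 5.65 and C1QTNF5 at 6.65 in ESCs, each within 1 of its mean in line 3806 fibroblasts. ADAMTS5 at 4.36, LGR5 at 7.12, PROCR at 7.07 and LTBP2 at 7.03 were lower in ESCs than in either fibroblast kind.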

How the data were processed

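Messenger RNA of cultured cells was measured on single-colour oligonucleotide arrays. The table deposited by the authors holds log2 signals of probe sets, made with GCOS and RMA per the submitters' processing notes, with settings not given in the sources used here. RMA makes array distributions alike, which can hide a shift common to most genes. Arrays have no read depth, so precision rests on the number of cultures.

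Probe sets naming 1 gene (24956 of 52865) covered 14132 genes, with the probe set of highest mean over all arrays kept for the 6375 genes with several. Gene names came from the platform annotation and chromosomes from RefSeq. Arrays were averaged per culture. The 11 fibroblast cultures were fitted as 3 classes with limma 3.58.1 in R 4.3.3 (lmFit, eBayes; 8 residual degrees of freedom), tested on simulated data first. Tests were two-sided, with Benjamini-Hochberg adjustment over all 14132 genes. P-values measure the spread between these cultures.

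Named genes were 4 markers, the 15 largest rises and falls among called genes with non-overlapping culture means, up to 4 called and 2 uncalled members of each of 39 gene lists with the largest differences, and up to 5 genes each way called in both comparisons. The members, rule and lists were chosen with earlier results of these data known, so the lists are described and not tested. Alternatives covered the arrays set aside, the cultures in the fit, single arrays with culture as a block, the probe set rule, scaling, a filter at the viral 95th percentile, the variance prior, averaging, thresholds, and leaving out each culture or array.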

Additional observations from a re-analysis of the deposited data

Results flagged for a closer look

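Between the teratoma fibroblasts of the lines, 6 genes were called in limma, 5 higher and 1 lower in line 3806. The 4 genes given here are those also called against skin. RIT2 was 3.41 higher in line 3806 (adjusted p = 0.0108), with all 3 cultures above the 5 of line 3106. SPMAP2 was 3.13 higher (adjusted p = 5.64e-08), again in 3 of 3 cultures. PTH2R was 2.59 higher (adjusted p = 0.0108) and KRT81 2.24 higher (adjusted p = 0.0108), each in 3 of 3 cultures. These comparisons share the line 3806 cultures with the comparison against skin. Groups of 3 cultures are too small to test for an outlying culture.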

How the results depend on the processing

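The counts moved with several choices, and the cause was not tested. Against skin, with 61 genes called higher and 63 lower, single arrays with culture as a random block (correlation 0.574) gave 347 and 286, an adjusted p under 0.01 gave 17 and 20, and a difference of at least 2 gave 24 and 17. Keeping all arrays gave 33 lower and the 6 cultures alone 41 lower. Leaving out a culture or an array gave 22 to 88 higher and 23 to 81 lower. Between the lines, with 5 higher and 1 lower, the random block gave 23 and 17, and an adjusted p under 0.01 gave 1 and 0. The lower count was 2 with all arrays, 3 with the 8 teratoma cultures alone, 0 with the median over probe sets and 0 at a difference of at least 2. Leave-outs gave 2 to 6 higher and 0 to 3 lower.

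Centring arrays on their median gave 45 higher and 67 lower against skin. Of the 119 named genes, 94 kept their side of the threshold in the fit of the 6 cultures alone, 18 lost their call (among them KCNJ8, adjusted p = 0.0501, and PTH2R, 0.078) and 7 gained one. The brightest other probe set of HOXB6 differed by 0.10 (adjusted p = 0.678), with both means below the viral level. Of 58 called genes with another probe set, it differed by at least 1 in the same direction for 26, by less for 30, and pointed the other way for 2. Signals near the viral level of 6.73 are weakly resolved. No paired analysis was possible because the letters number arrays within a culture and the test is on culture means.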

Other observations

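Further genes among the 61 called higher and 63 called lower follow, picked after their values were seen. SALL2, a zinc finger factor of embryonic neural tissue, was at 7.26, 7.53 and 7.52 in TA38, TB38 and TC38 against 5.64, 6.10 and 5.78 in M032, M088 and M106p1. VANGL2, a planar cell polarity protein, was at 8.51, 8.45 and 9.10 against 6.88, 7.12 and 6.46. SYT1, the calcium sensor of synaptic vesicles, was at 10.30, 10.89 and 10.19 against 8.34, 7.61 and 8.74. PTPRD, a receptor phosphatase of synapses, was at 8.73, 9.08 and 8.92 against 6.54, 6.83 and 7.17. Among the genes called lower, HYAL1, a hyaluronan-degrading enzyme, was at 8.46, 7.90 and 7.96 against 9.87, 10.24 and 10.55. ABCA8, a membrane transporter, was at 7.21, 7.33 and 7.32 against 9.11, 8.63 and 8.61. The brightest other ABCA8 probe set differed by -0.04 (limma adjusted p = 0.88), with both means, 5.37 and 5.41, below the viral background level. Those of SYT1, PTPRD and HYAL1 gave 2.26, 1.47 and -1.97.

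Values outside the comparison concern SPMAP2, which was high in line 3806 fibroblasts. In the ESCs of that line it was at 9.82 and 10.07 on the arrays labelled C3806a and C3806b. On the line 3106 ESC arrays it was at 6.28 and 5.99 on C3106b and C3106d but at 9.84 on C3106c. That last value is like those of C3806a and C3806b, and whether the label of C3106c gives its line was not tested.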
